A study of Mus musculus with 6 samples.

Results

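Glycolysis is the cytosolic pathway that splits glucose into pyruvate, and 10 of its enzymes were followed in 3 clonal lines of immortalised mouse B cells. The members were taken by gene name: Hk2, Pfkl, Pfkp, Aldoa, Gapdh, Pgk1, Pgam1, Eno1, Pkm and Ldha, 10 of the 37315 genes of the abundance table. All 10 had a transcript abundance in every library. Of these, 9 had at least 20 allele-specific counts in every library; Pgk1 has no row in the allele table used here, so its alleles were not analysed. The members were chosen by their TPM and allelic shares in these same libraries, so their values are a description. No test is given for Hk2 and Eno1, whose patterns led to the choice. The p-values and counts of the other 8 reuse values that chose the members, so they are a description that supports nothing.

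The lines are named Abl.2, Abl.3 and Abl.4. All come from a 129S1/SvImJ x CAST/EiJ F1 background, with a female label on Abl.2 and Abl.4 and a male label on Abl.3. Every library is a control, from cells in growth medium with 1% DMSO (a solvent) and 15% FBS, collected alive on day 2 after gradient centrifugation. Each line is 1 clone with 2 library preparation replicates (SMART-seq v4 from 10 ng of RNA), so p-values measure the spread between library preparations and not between animals or clones. The deposited tables call the alleles maternal and paternal; which strain was the mother was not given in the sources used here.

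Glucose is trapped by hexokinase, rearranged, phosphorylated again by phosphofructokinase (the committed step) and split by aldolase. The lower part of the pathway, from Gapdh to pyruvate kinase, yields ATP and NADH, and lactate dehydrogenase returns NAD+ by turning pyruvate into lactate. Dividing lymphocytes are known for raised glycolysis, and many of these genes are textbook targets of the hypoxia factor HIF-1 and of Myc.

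The allele table held 18362319 to 26881211 counts per library. All 8 B lineage markers exceeded 1 TPM, with summed levels of 10162 and 10435 TPM in the Abl.2 libraries, 8473 and 8990 TPM in those of Abl.3, the lowest, and 10340 and 10566 TPM in those of Abl.4; no T cell, erythroid or stromal marker exceeded 1 TPM (highest 0.69 TPM). Of 4 myeloid markers, Lyz2 and Itgam exceeded 1 TPM; their list summed to 159 to 193 TPM in Abl.2, 75.0 to 97.2 TPM in Abl.3 and 77.9 to 89.4 TPM in Abl.4. The sum was carried by Lyz2; Itgam ran the other way, at 0.43, 0.845 and 6.82 TPM on average in the same order of lines. The part of these markers in the results was not tested. In bulk RNA, fewer cells of a type and less RNA per cell cannot be told apart.

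Promoter sequence was examined because most members moved in the same direction between lines. The 250 bases before a gene's start (RefSeq, GRCm38.p6; all 10 members matched, with 16 start sites) were searched on both strands for ACGTG and GCGTG, the core letters of HIF-1 sites, and for CACGTG, the E-box letters read by Myc. CACGTG contains ACGTG on both strands and is counted there as well. In the window nearest each member's start, 8 of 10 members held ACGTG or GCGTG. Of the 32851 windows of all genes, 38.6% did, counted over every start and not over 1 nearest window per gene. Counted over any window of a gene, it was 10 of 10 members, against 41.5% of 27025 genes. Members had more windows per gene, 16 for 10 members against 32851 for 27025 genes, which gives them more places for a match. Aldoa and Pkm held a match only in windows of other starts. CACGTG occurred in 1 of 10 members, Ldha, against 6.02% of all windows. The members' windows were 50.4% to 71.2% G and C, against a median of 52.4% over all windows, and a letter match is a description, not a bound site. The 4 windows shown are those of Hk2 (chr6:82774455-82774704, minus strand) and Eno1 (chr4:150236458-150236707, plus strand), whose allelic shares differed most between lines, and of Pgk1 (chrX:106186850-106187099, plus strand) and Ldha (chr7:46845554-46845803, plus strand), which had 2 and 5 matches to ACGTG or GCGTG. The Ldha window lies before a RefSeq start inside the gene body of the deposited coordinates. For the Eno1 and Ldha windows shown, the bases after the start were not found in a transcript of the gene in GENCODE. They were found for the Eno1 windows that begin at 150236947 and 150236974, which held 2 matches each. Capitals mark ACGTG or GCGTG, or the same letters read from the other strand (CACGT or CACGC).
Hk2: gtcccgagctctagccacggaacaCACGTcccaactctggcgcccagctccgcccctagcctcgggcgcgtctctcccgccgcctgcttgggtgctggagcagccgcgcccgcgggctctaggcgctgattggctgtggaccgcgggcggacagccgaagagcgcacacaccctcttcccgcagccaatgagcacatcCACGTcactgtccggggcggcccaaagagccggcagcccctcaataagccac
Eno1: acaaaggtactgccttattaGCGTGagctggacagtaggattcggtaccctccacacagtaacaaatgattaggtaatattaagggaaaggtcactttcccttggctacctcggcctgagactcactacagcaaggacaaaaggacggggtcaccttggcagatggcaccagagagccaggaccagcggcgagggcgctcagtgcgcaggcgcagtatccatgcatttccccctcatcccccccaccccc
Pgk1: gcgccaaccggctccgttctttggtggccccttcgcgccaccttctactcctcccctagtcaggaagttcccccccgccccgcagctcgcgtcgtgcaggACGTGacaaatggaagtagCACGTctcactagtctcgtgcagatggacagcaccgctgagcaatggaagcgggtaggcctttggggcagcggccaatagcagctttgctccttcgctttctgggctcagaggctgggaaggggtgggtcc
Ldha: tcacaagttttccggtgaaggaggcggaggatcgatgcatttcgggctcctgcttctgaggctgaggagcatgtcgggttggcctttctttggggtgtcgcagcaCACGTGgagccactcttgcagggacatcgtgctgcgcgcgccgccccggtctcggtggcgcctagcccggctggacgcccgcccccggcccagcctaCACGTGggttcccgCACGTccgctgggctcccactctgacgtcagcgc

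The members spanned a wide range of transcript abundance, given as TPM (transcript abundance relative to the library total and to gene length). Summed over the 10 members, abundance was 11040 ± 178 TPM for Abl.2, 17573 ± 1039 TPM for Abl.3 and 18520 ± 1334 TPM for Abl.4 (SD, n = 2 libraries, as for all values below). This sum was 1.10% of all TPM in Abl.2, 1.76% in Abl.3 and 1.85% in Abl.4. Gapdh was the most abundant member (rank 7 of all genes by mean TPM), followed by Ldha (rank 17) and Pkm (rank 38), and Hk2 the least (rank 8480). Every member had its lowest line mean in Abl.2.

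**Figure D1:**
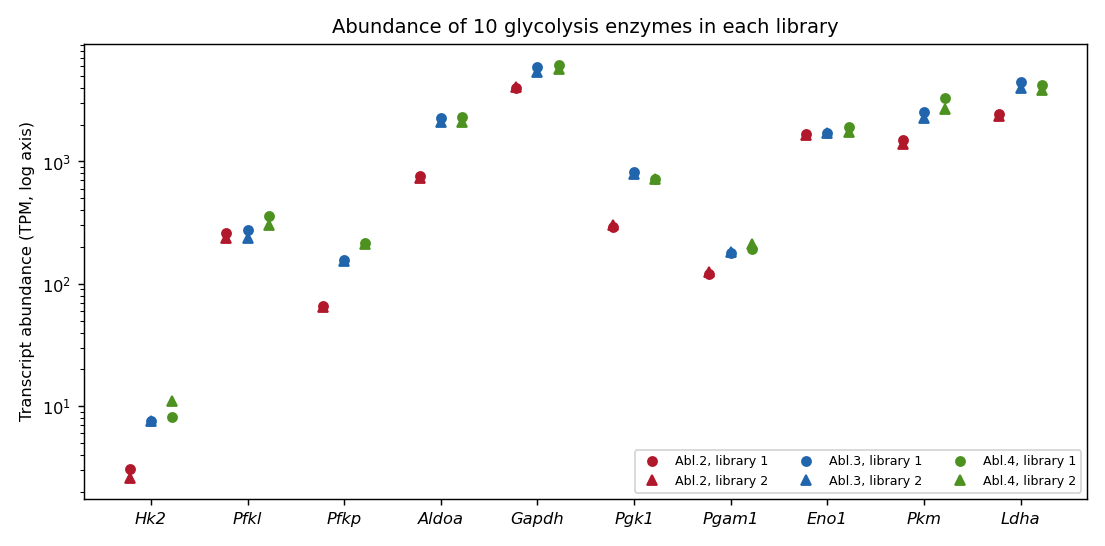
Transcript abundance of the 10 glycolysis enzymes, in pathway order, in each of the 6 libraries (y axis: TPM, log scale; 1 point per library, colour for the line and shape for the library). Abl.2 lies below both other lines for Hk2, Pfkp, Aldoa, Gapdh, Pgk1, Pgam1, Pkm and Ldha, while Eno1 stays between 1640 and 1925 TPM throughout.

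Hk2 encodes the inducible hexokinase that phosphorylates glucose at the mitochondrial surface (chromosome 6, 82725025 to 82774454). It was at 3.08 and 2.58 TPM in Abl.2, 7.63 and 7.53 TPM in Abl.3, and 8.11 and 10.99 TPM in Abl.4. The lines did not overlap, and the Abl.3 and Abl.4 means were 2.68 and 3.37 times the Abl.2 mean. On the log2(TPM + 1) scale, Abl.2 minus Abl.3 was -1.17 (SE 0.17). Hk1, the constitutive hexokinase (chromosome 10), had another order of lines and was at 38.0 and 38.5 TPM in Abl.2, 26.6 and 21.1 TPM in Abl.3 and 99.6 and 85.0 TPM in Abl.4. Hk1 was higher in Abl.2 than in Abl.3 by 0.67 on the log2 scale (SE 0.13, limma adjusted p = 0.00905). That call was lost without Abl.2 replicate 1 (adjusted p = 0.0507), Abl.2 replicate 2 (0.0562) or Abl.3 replicate 2 (0.0501). Hk1 was lower in Abl.2 than in Abl.4 (-1.24, limma adjusted p = 0.000836) and lower in Abl.3 than in Abl.4 (-1.91, adjusted p = 0.000157).

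The alleles of Hk2 showed a sharp difference between lines. In Abl.2, 3 of 485 and 2 of 527 allelic counts were maternal, shares of 0.00619 (95% Wilson interval 0.00211 to 0.0180) and 0.00380 (0.00104 to 0.0137). In Abl.3 the maternal share was 0.454 and 0.457, and in Abl.4 0.495 and 0.546. Hk2 was therefore almost wholly paternal in Abl.2 and carried by both alleles in the other lines. The authors' deposited table gave maternal fractions for Hk2 of 0.00 (Abl.2), 0.46 (Abl.3) and 0.52 (Abl.4). Multiplying TPM by the share put the paternal transcript at 2.82 ± 0.347 TPM for Abl.2, 4.13 ± 0.0527 TPM for Abl.3 and 4.54 ± 0.631 TPM for Abl.4. The maternal transcript was at 0.0144 ± 0.00655, 3.45 ± 0.0180 and 5.01 ± 1.41 TPM in the same lines. The paternal level thus also had its lowest values in Abl.2, and the gap between lines was wider for the maternal allele.

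The genes around Hk2 did not share its pattern. Among the 10 testable genes on each side, maternal shares in Abl.2 ran from 0.0204 to 0.619 with a median of 0.473. Not all of them are close: they start from -10292 kb (Mat2a) to 384 kb (Mrpl53) relative to Hk2. On the lower side, only Pole4, Mrpl19 and Gcfc2 (-801 kb) lie nearer than Gm9008 (-6230 kb). The nearest on either side, Pole4 and M1ap, were at 0.605 and 0.390. The single neighbour at or below 0.1 in Abl.2 was Gm9008, which was also at or below 0.1 in Abl.3 and Abl.4. These neighbours are named for their place beside Hk2 or, for Gm9008, after the values were seen. Over chromosome 6 the median share in Abl.2 was 0.497, and 11 of 378 tested genes had a share of at most 0.1. Hk2 overlaps an antisense gene, Gm17034, and whether counting used strand was not given in the sources used here.

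**Figure D2:**
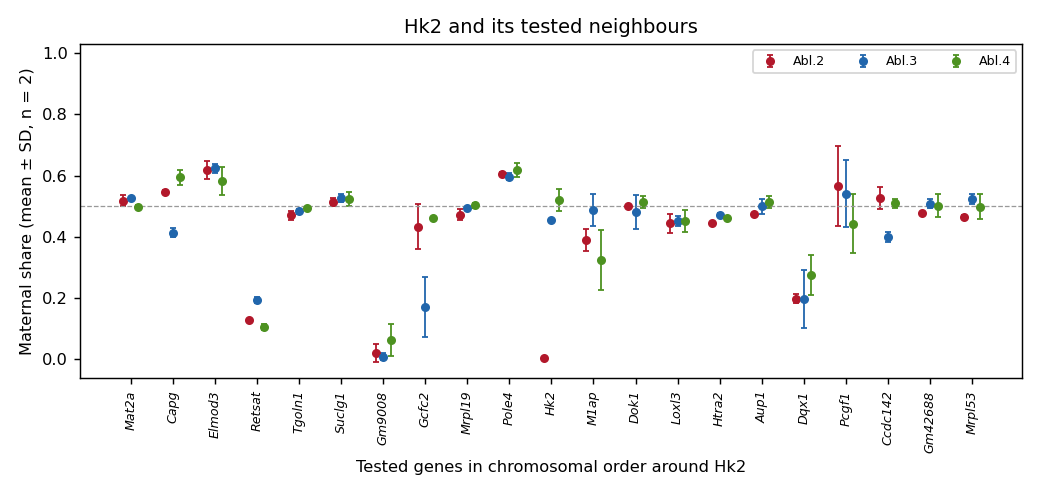
Maternal share of allelic counts for Hk2 and the 10 testable genes on each side, in chromosomal order (points: mean of 2 libraries per line; bars: SD; dashed line: equal alleles). Hk2 in Abl.2 (mean 0.00499) lies far below its neighbours' median of 0.473, while in Abl.3 and Abl.4 Hk2 lies at 0.456 and 0.521. Genes are spaced by order and not by distance.

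Both phosphofructokinase members catalyse the committed step, Pfkl as the liver-type and Pfkp as the platelet-type subunit. Pfkp (chromosome 13, 6579768 to 6648777) was at 65.4 and 65.0 TPM in Abl.2, 158 and 154 TPM in Abl.3 and 214 and 213 TPM in Abl.4. The lines were fully separated: Abl.2 was lower than Abl.3 by a log2 difference of -1.25 (SE 0.067, limma adjusted p = 4.59e-05), and Abl.3 lower than Abl.4 by -0.45 (adjusted p = 0.0034). The second call was lost when summed allelic counts replaced TPM (-0.22, edgeR adjusted p = 0.0687). Pfkl (chromosome 10, 77986947 to 78010083) was at 262 and 235 TPM in Abl.2, 276 and 238 TPM in Abl.3 and 360 and 305 TPM in Abl.4. Abl.2 and Abl.3 overlapped for Pfkl (log2 difference -0.05, limma adjusted p = 0.779). Pfkl was lower in Abl.2 than in Abl.4 (-0.41, limma adjusted p = 0.0371). That call was lost without Abl.2 replicate 1 (adjusted p = 0.0833) or 2 (0.183), Abl.3 replicate 1 (0.0510) or Abl.4 replicate 1 (0.147). Pfkl was also lower in Abl.3 than in Abl.4 (-0.37, limma adjusted p = 0.0492), a call lost without either Abl.2 library (adjusted p = 0.0744 and 0.0758), either Abl.3 library (0.0703 and 0.227) or Abl.4 replicate 1 (0.189). Pfkp made up 20.4% of the summed TPM of Pfkl, Pfkm and Pfkp for Abl.2, 36.8% for Abl.3 and 37.6% for Abl.4.

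The alleles of Pfkl were unequal in all lines and most unequal in Abl.2. Its maternal share was 0.276 and 0.283 in Abl.2, 0.426 and 0.437 in Abl.3, and 0.439 and 0.441 in Abl.4, from 18440 to 26511 counts per library. The log2 ratio of maternal to paternal counts was lower in Abl.2 than in Abl.3 by 0.97 (value -0.97, SE 0.045, edgeR adjusted p = 2.07e-08) and than in Abl.4 by 1.02 (value -1.02, SE 0.045, adjusted p = 1.66e-08). In TPM, the maternal transcript was at 69.5 ± 4.07 for Abl.2, 111 ± 9.55 for Abl.3 and 146 ± 16.7 for Abl.4, while the paternal one was at 179 ± 15.1, 147 ± 17.3 and 186 ± 22.3. This pattern was not confined to Pfkl: over 431 tested genes of chromosome 10, the median maternal share in Abl.2 was 0.337, against 0.503 in Abl.3 and 0.504 in Abl.4. The median log2 abundance difference of chromosome 10 genes was 0.588 for Abl.2 minus Abl.3 and 0.443 for Abl.2 minus Abl.4. Pfkl, at -0.05 and -0.41, lay below both medians. Hk1, on the same chromosome, had a maternal share of 0.120 ± 0.0252 for Abl.2, 0.576 ± 0.00858 for Abl.3 and 0.407 ± 0.0128 for Abl.4. The part of a chromosome-wide change in the Pfkl and Hk1 values was not tested. Pfkp stayed near equal shares, at 0.466 ± 0.000716 for Abl.2, 0.513 ± 0.00370 for Abl.3 and 0.488 ± 0.00727 for Abl.4, with a log2 ratio lower in Abl.2 than in Abl.3 by 0.27 (value -0.27, SE 0.057, edgeR adjusted p = 0.00396).

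Aldoa, which splits fructose bisphosphate, had the largest absolute log2 difference of the members between Abl.2 and Abl.3 (chromosome 7, 126795234 to 126800751). It was at 759 and 735 TPM in Abl.2, 2255 and 2107 TPM in Abl.3 and 2299 and 2107 TPM in Abl.4. Abl.2 lay apart and the other lines overlapped. The log2 differences of Abl.2 were -1.54 against Abl.3 (SE 0.080, limma adjusted p = 3.91e-05) and -1.56 against Abl.4 (SE 0.080, adjusted p = 4.05e-05). Almost all aldolase TPM came from Aldoa, 99.95% to 99.97% per line. Its maternal share was close to equal in each line, at 0.498 ± 0.00993, 0.524 ± 0.00611 and 0.513 ± 0.00630. A small log2 ratio difference between Abl.2 and Abl.3 (-0.15, edgeR adjusted p = 0.0439) was lost without Abl.2 replicate 2 (adjusted p = 0.288), Abl.3 replicate 1 (0.226) or Abl.3 replicate 2 (0.0892).

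Gapdh oxidises glyceraldehyde phosphate and is often taken as a reference gene (chromosome 6, 125161715 to 125166467). It was at 4014 and 4060 TPM in Abl.2, 5899 and 5419 TPM in Abl.3 and 6184 and 5746 TPM in Abl.4. Abl.2 was lowest, and Abl.3 and Abl.4 overlapped. The log2 differences of Abl.2 were -0.49 against Abl.3 (SE 0.084, limma adjusted p = 0.00520) and -0.56 against Abl.4 (adjusted p = 0.00329). Both turned positive when summed allelic counts replaced TPM. The value against Abl.3, 0.30, did not pass (edgeR adjusted p = 0.708), while that against Abl.4, 1.83, passed in the opposite direction (0.0390). The Abl.4 libraries held 803 and 141 of those counts at 6184 and 5746 TPM, so the summed-count differences of Gapdh are not read as abundance. The Abl.3 call was lost without Abl.2 replicate 1 (adjusted p = 0.0560) or Abl.2 replicate 2 (0.0537). Gapdh had only 141 to 2670 allelic counts per library, an 18.9-fold range against a 1.54-fold range of TPM, and its maternal share of 0.478 ± 0.0311, 0.476 ± 0.0208 and 0.498 ± 0.0683 is correspondingly imprecise. There are 76 other annotated genes that share at least 95% identity over at least 300 bases with Gapdh, of which 46 are in the abundance table; they held 0.158% to 0.240% of the TPM of Gapdh and its copies.

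Pgk1 makes the first ATP of the lower pathway and lies on the X chromosome (106187100 to 106203699). It was at 294 and 303 TPM in Abl.2, 814 and 786 TPM in Abl.3 and 722 and 715 TPM in Abl.4. Abl.2 was again apart, with log2 differences of -1.42 against Abl.3 (SE 0.066, limma adjusted p = 2.60e-05) and -1.26 against Abl.4 (SE 0.066, adjusted p = 4.30e-05). The libraries of Abl.3 lay above those of Abl.4, but this difference of 0.15 did not pass the test (limma adjusted p = 0.110). Over 222 tested X genes the median maternal share was 0.00115 for Abl.2, 0.999 for Abl.3 and 0.000653 for Abl.4, so most tested X genes were read from the paternal X in both female lines.

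Pgam1 moves the phosphate of phosphoglycerate (chromosome 19, 41911871 to 41918664). Its libraries were at 120 and 124 TPM in Abl.2, 180 and 181 TPM in Abl.3 and 193 and 213 TPM in Abl.4. The lines did not overlap; Abl.2 was lower than Abl.3 by a log2 difference of -0.56 (SE 0.078, limma adjusted p = 0.00221) and than Abl.4 by -0.73 (adjusted p = 0.000831). Pgam1 leaned to the maternal allele in every line, with shares of 0.565 ± 0.0124, 0.552 ± 0.0153 and 0.566 ± 0.0204. The lean passed the edgeR test in Abl.2 (adjusted p = 0.00111), Abl.3 (0.00525) and Abl.4 (0.00134), and the Abl.3 call was lost without Abl.3 replicate 1 (adjusted p = 0.105).

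Eno1 encodes alpha-enolase, which makes phosphoenolpyruvate (chromosome 4, 150236721 to 150248879). It was at 1684 and 1640 TPM in Abl.2, 1719 and 1723 TPM in Abl.3 and 1925 and 1728 TPM in Abl.4. The line means were within a factor of 1.10, with a log2 difference of -0.05 (SE 0.079) between Abl.2 and Abl.3 and -0.13 (SE 0.079) between Abl.2 and Abl.4. Its alleles differed sharply. The maternal share was 0.998 in both Abl.2 libraries (82685 of 82855 and 85564 of 85720 counts), 0.528 and 0.534 in Abl.3, and 0.527 and 0.531 in Abl.4. The maternal transcript was at 1659 ± 30.5 TPM for Abl.2, 913 ± 8.97 TPM for Abl.3 and 966 ± 69.2 TPM for Abl.4, and the paternal one at 3.22 ± 0.332, 808 ± 6.39 and 861 ± 70.5 TPM. The maternal level in Abl.2 was therefore 1.82 and 1.72 times that of Abl.3 and Abl.4, with a similar total. Unlike Hk2, Eno1 shared its allelic pattern with its surroundings: all 20 neighbours had a maternal share of at least 0.942 in Abl.2, and the median of 554 tested genes of chromosome 4 was 0.998, against 0.507 in Abl.3 and 0.499 in Abl.4.

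The level of Eno1 is uncertain because near-identical genes can take its reads. Eno1b was at 730 ± 39.7, 961 ± 54.2 and 895 ± 139 TPM in Abl.2, Abl.3 and Abl.4. Gm4735 was at 2.65 ± 0.0283 TPM for Abl.2, 533 ± 1.73 TPM for Abl.3 and 513 ± 104 TPM for Abl.4. Gm4735 was thus low in the line in which Eno1 had almost no paternal counts, and whether its reads came from Eno1 was not tested. Both copies together held 30.0% to 47.1% of the summed TPM of the 3 genes. That sum was 2394 ± 70.5 TPM for Abl.2, 3214 ± 53.4 TPM for Abl.3 and 3235 ± 383 TPM for Abl.4, a ratio to Abl.2 of 1.34 and 1.35. The corresponding log2 differences were -0.43 (SE 0.097) against both other lines, a calculation added after the values had been seen. With summed allelic counts in place of TPM, the differences of Eno1 alone were -0.40 and -0.32. Those counts ranged only 1.04-fold between libraries while library totals ranged 1.46-fold. The allelic totals of Ldha and Pkm were narrow too, 1.12-fold for Ldha against 1.88-fold in TPM and 1.21-fold for Pkm against 2.39-fold in TPM. Those of Aldoa (1.89-fold against 3.13-fold in TPM) and Gapdh (18.9-fold against 1.54-fold in TPM) ranged more widely. Whether a limit on the reads counted per site holds the totals of Eno1, Ldha and Pkm level was not tested. If so, the summed-count differences of Eno1, Ldha and Pkm would follow library totals, and they are not read as abundance.

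**Figure D3:**
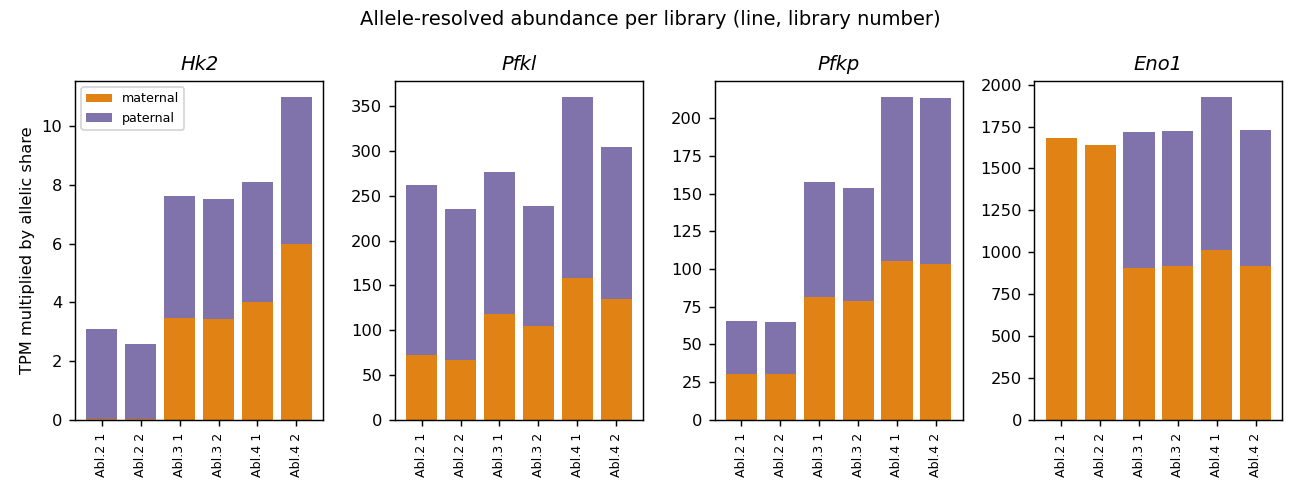
Abundance resolved by allele in each library for Hk2, Pfkl, Pfkp and Eno1 (y axis: TPM multiplied by the maternal or paternal share of allelic counts; stacked bars, each panel with its own scale from 0). Abl.2 has almost only paternal Hk2 and almost only maternal Eno1, and its Eno1 bars are about as high as those of the other lines.

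Pkm, pyruvate kinase of muscle and dividing cells (chromosome 9, 59656368 to 59679375), was at 1500 and 1379 TPM in Abl.2, 2534 and 2251 TPM in Abl.3 and 3300 and 2683 TPM in Abl.4. The lines did not overlap. Abl.2 was lower than Abl.3 by a log2 difference of -0.73 (SE 0.12, limma adjusted p = 0.00447) and than Abl.4 by -1.05 (adjusted p = 0.00116). The difference between Abl.3 and Abl.4, -0.32, did not pass (limma adjusted p = 0.0818). It passed with the replicate number as a block (limma adjusted p = 0.0110), and was -0.47 without Abl.4 replicate 2. The maternal share of Pkm was 0.528 ± 0.00643 for Abl.2, 0.526 ± 0.00173 for Abl.3 and 0.567 ± 0.00547 for Abl.4. Abl.4 stood apart: the log2 ratio differed by -0.23 between Abl.2 and Abl.4 (SE 0.032, edgeR adjusted p = 0.000264) and by -0.24 between Abl.3 and Abl.4 (SE 0.032, adjusted p = 0.000355). The gene-level values do not separate the M1 and M2 splice forms, and Pkm overlaps Gm49759 on the same strand.

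Ldha, which turns pyruvate into lactate (chromosome 7, 46841475 to 46855627), was at 2465 and 2371 TPM in Abl.2, 4463 and 3973 TPM in Abl.3 and 4256 and 3855 TPM in Abl.4. Abl.2 was lowest and the other lines overlapped. The log2 differences of Abl.2 were -0.80 against Abl.3 (SE 0.093, limma adjusted p = 0.00109) and -0.74 against Abl.4 (adjusted p = 0.00161). Its maternal share was slightly below equality, at 0.470 ± 0.00526, 0.479 ± 0.00240 and 0.488 ± 0.00202. The log2 ratio difference between Abl.2 and Abl.4, -0.10 (edgeR adjusted p = 0.0399), was lost without any 1 of the 6 libraries (adjusted p from 0.0532 to 0.237).

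**Figure D4:**
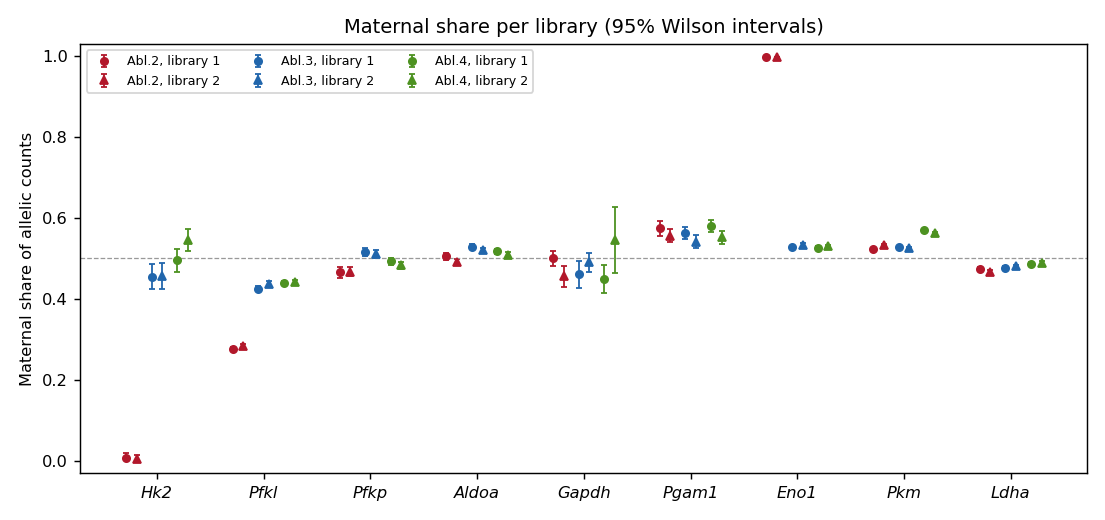
Maternal share of allelic counts for the 9 members with an allele row, in each of the 6 libraries (points: share; bars: 95% Wilson interval, counting error only; dashed line: equal alleles). In Abl.2, Hk2 lies near 0, Eno1 near 1 and Pfkl near 0.28, while Pfkp, Aldoa, Gapdh, Pgam1, Pkm and Ldha lie between 0.44 and 0.60 in all lines.

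Counts over the members other than Hk2 and Eno1 are given beside those over all genes as a description, since the same values chose the members. Between Abl.2 and Abl.3, 7 of 8 were lower in Abl.2 with a median log2 difference of -0.77, where 39.8% of 11003 tested genes were called, 14.0% lower and 25.9% higher in Abl.2, and the median of all genes was 0.099. Between Abl.2 and Abl.4, 8 of 8 were lower in Abl.2 with a median of -0.90, against 33.5% of all genes called, 18.4% lower and 15.0% higher, and an all-gene median of -0.027. Between Abl.3 and Abl.4, 2 of 8 (Pfkl and Pfkp) were lower in Abl.3, with a median of -0.12, against 38.1% called, 26.8% lower and 11.3% higher, and an all-gene median of -0.146. The comparisons with Abl.3 and Abl.4 share the Abl.2 libraries and are not independent. Under quantile normalisation the share of calls that were higher in the first line went from 65.0% to 51.4% for Abl.2 against Abl.3 and from 29.8% to 52.0% for Abl.3 against Abl.4, with no call of a member changed. The count for Abl.3 against Abl.4 was 1 to 3 when a single library was left out: Pfkl dropped out without Abl.2 replicate 1 or 2, Abl.3 replicate 1 or 2, or Abl.4 replicate 1, and Pkm came in without Abl.4 replicate 2. With the replicate number as a block, Pkm was called as well between Abl.3 and Abl.4 (limma adjusted p = 0.0110). With summed allelic counts, Pfkl (edgeR adjusted p = 0.221) and Pfkp (0.0687) were both lost from that comparison. With those counts 5 of 7 were lower in Abl.2 than in Abl.3, and Gapdh was called higher in Abl.2 than in Abl.4 (1.83, edgeR adjusted p = 0.0390). Pkm and Ldha are among the 5, and the summed counts of Pkm, Ldha and Gapdh are not read as abundance.

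**Figure D5:**
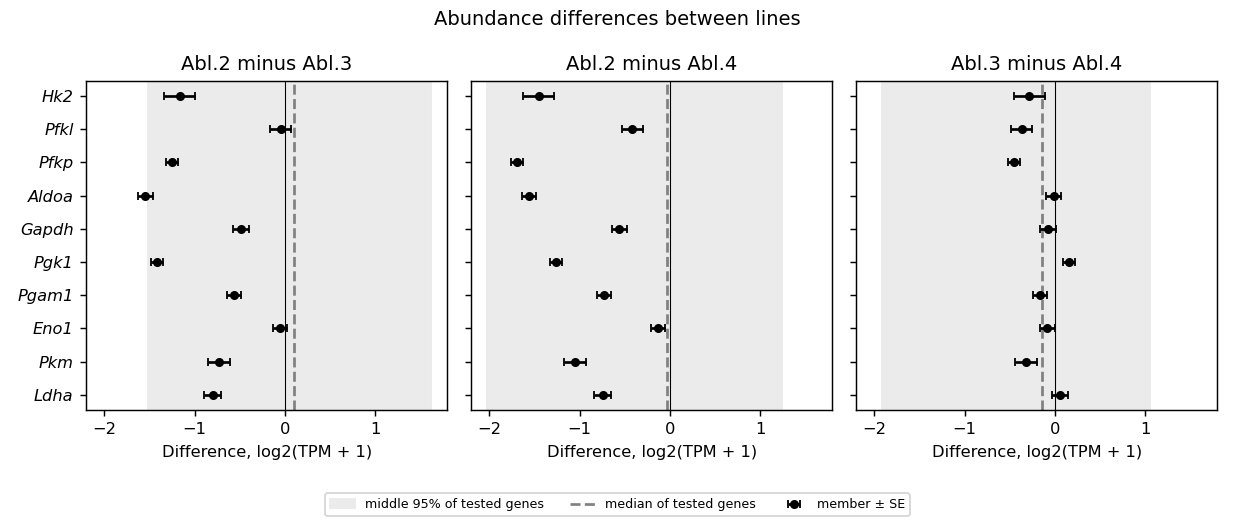
Abundance differences of the 10 members for each pair of lines (x axis: difference of log2(TPM + 1), first line minus second; points: estimate; bars: SE; dashed line: median of all tested genes; grey: middle 95% of tested genes). For Abl.2, all members lie at or left of 0 against Abl.3 and Abl.4, from -1.70 for Pfkp to -0.05 for Eno1 and Pfkl. Between Abl.3 and Abl.4 they lie from -0.45 for Pfkp to 0.15 for Pgk1. The Gapdh differences of Abl.2 turn positive with summed allelic counts, which are not read as abundance for Gapdh.

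Allelic calls over the same members were read against the same background. Among the 7 testable members other than Hk2 and Eno1, the log2 allele ratio differed for 3 between Abl.2 and Abl.3 (Pfkl, Pfkp and Aldoa), where 28.4% of 8702 genes did. It differed for 3 between Abl.2 and Abl.4 (Pfkl, Pkm and Ldha; 22.3% of all genes) and for 1 between Abl.3 and Abl.4 (Pkm; 16.5%). With the allele totals as the null, these counts became 5, 5 and 2. Imbalance within a line was called for 5 of 7 for Abl.2, 5 for Abl.3 and 4 for Abl.4, against 49.1%, 45.1% and 39.9% of all genes. Without Abl.3 replicate 1, the imbalance of Aldoa (edgeR adjusted p = 0.126) and Pgam1 (0.105) in Abl.3 was no longer called, which left 3 of 7.

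Of 21 other glycolytic enzymes, 9 were abundant enough to test. Gpi1, which isomerises glucose phosphate, was at 499 and 493 TPM in Abl.2, 810 and 752 TPM in Abl.3 and 998 and 885 TPM in Abl.4. It was lower in Abl.2 than in Abl.3 (-0.65, limma adjusted p = 0.00176) and Abl.4 (-0.92, adjusted p = 0.000452). Gpi1 was also lower in Abl.3 than in Abl.4 (-0.27, limma adjusted p = 0.0486), a call lost without any library except Abl.4 replicate 2 (adjusted p from 0.0953 to 0.209). Tpi1, the triose isomerase, was at 700 and 709 TPM in Abl.2, 1637 and 1577 TPM in Abl.3 and 1918 and 1795 TPM in Abl.4. It was lower in Abl.2 than in Abl.3 (-1.19, limma adjusted p = 7.10e-05) and Abl.4 (-1.40, adjusted p = 4.05e-05). In all, 4 of the 9 were lower and 1 higher in Abl.2 than in Abl.3 (median -0.25), 4 were lower in Abl.2 than in Abl.4 (median -0.38) and 3 lower in Abl.3 than in Abl.4 (median -0.21). Of all genes tested, 14.0%, 18.4% and 26.8% were lower in the first line of these comparisons and 25.9%, 15.0% and 11.3% higher, and the counts of all pathway lists below stand beside the same shares and draw on the same libraries.

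Among the transporters, Slc16a3 was near 0 in Abl.2 and Slc2a6 was highest there. Slc16a3, the lactate exporter MCT4, was at 0.17 and 0.78 TPM in Abl.2, 93.6 and 83.5 TPM in Abl.3 and 190 and 160 TPM in Abl.4. The log2 differences of Abl.2 were -5.95 against Abl.3 (SE 0.21) and -6.93 against Abl.4. Slc16a3 passed the filter on low values, a mean of at least 1 TPM over the 6 libraries, only through Abl.3 and Abl.4, so no p is given for these differences. Slc16a3 was also lower in Abl.3 than in Abl.4 (-0.97, limma adjusted p = 0.0120), a call lost without Abl.3 replicate 1 (adjusted p = 0.0554), Abl.3 replicate 2 (0.0780) or Abl.4 replicate 1 (0.0733), or with a pseudocount of 0.1 (0.164). Slc2a6, a lysosomal member of the glucose transporter family, ran the other way, at 78.3 and 77.2 TPM in Abl.2, 11.9 and 12.9 TPM in Abl.3 and 12.1 and 9.52 TPM in Abl.4. It was higher in Abl.2 than in Abl.3 by 2.56 (limma adjusted p = 3.31e-05) and than in Abl.4 by 2.75 (adjusted p = 2.74e-05). Of the 6 transporters tested, 2 were higher and 2 lower in Abl.2 than in Abl.3. Between Abl.2 and Abl.4, 1 was higher and 3 lower in Abl.2, and between Abl.3 and Abl.4, 5 were lower in Abl.3. Slc16a3 is among the 2 and the 3 that were lower in Abl.2, so nothing is read from those counts.

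Among genes that regulate or reverse the pathway, Fbp1 was highest in Abl.3 and Pdk2 was lowest there. Fbp1, which runs the phosphofructokinase step backwards in gluconeogenesis, was at 1.16 and 0.67 TPM in Abl.2, 63.7 and 64.2 TPM in Abl.3 and 6.24 and 6.90 TPM in Abl.4. It was lower in Abl.2 than in Abl.3 by a log2 difference of -5.10 (SE 0.15) and than in Abl.4 by -1.99, and was higher in Abl.3 than in Abl.4 by 3.10 (limma adjusted p = 3.99e-05). Pdk2, which inhibits pyruvate dehydrogenase, was at 11.7 and 9.95 TPM in Abl.2, 0.60 and 0.11 TPM in Abl.3 and 7.60 and 3.71 TPM in Abl.4. Pdk2 was higher in Abl.2 than in Abl.3 by 3.14 (SE 0.32) and lower in Abl.3 than in Abl.4 (-2.26). Fbp1 in Abl.2 and Pdk2 in Abl.3 averaged under 1 TPM and passed the filter only through the other lines, so no p is given against those lines. Of 9 tested flux regulators, 4 were higher in Abl.2 than in Abl.3. Between Abl.2 and Abl.4, 1 was higher and 1 lower in Abl.2, and between Abl.3 and Abl.4, 3 were lower in Abl.3. Pdk2, for which no p is given against Abl.3, is among the 4 and among the 3. Under quantile normalisation the 4 became 2, and for Abl.3 against Abl.4 2 were lower and 2 higher. Of all genes 39.8%, 33.5% and 38.1% were called in the same order, and nothing is read from these counts. Of 4 tested gluconeogenesis genes, 2 were higher and 1 lower in Abl.2 than in Abl.3. Between Abl.2 and Abl.4, 1 was higher and 3 lower in Abl.2, and between Abl.3 and Abl.4, 1 was higher and 2 lower in Abl.3. Fbp1 is the 1 lower in Abl.2 than in Abl.3 and is among the 3, so nothing is read from those counts. The 2 higher in Abl.2 than in Abl.3 became 1 under quantile normalisation and with every gene above 0 TPM. Under quantile normalisation 2 were higher in Abl.3 than in Abl.4.

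Counts were also taken for the pathways that take carbon away from glycolysis, where 39.8%, 33.5% and 38.1% of all genes were called in the 3 comparisons. Of 7 tested pentose phosphate genes, 1 was higher in the first line in each of the 3 comparisons, with medians of 0.13, 0.03 and -0.03. For Abl.3 against Abl.4 that count was 0 under quantile normalisation and with every gene above 0 TPM. Of 7 genes for the entry of pyruvate into mitochondria, 1 was higher and 2 lower in Abl.2 than in Abl.3, 1 was higher in Abl.2 than in Abl.4 and 1 higher in Abl.3 than in Abl.4. The count lower in Abl.2 than in Abl.3 was 3 under quantile normalisation, 4 with summed allelic counts (none higher) and 1 with every gene above 0 TPM; 2 were lower in Abl.2 than in Abl.4 with summed counts. The 7 tested transcriptional regulators include the genes for HIF-1 (Hif1a and Arnt) and Myc. Of the 7, 3 were higher in Abl.2 than in Abl.3, 1 was lower in Abl.2 than in Abl.4 and 4 were lower in Abl.3 than in Abl.4. Arnt was among the 3 (0.78, limma adjusted p = 0.00142), while Hif1a (0.37, 0.0573) and Myc (0.31, 0.0713) were not. Hif1a was the 1 lower in Abl.2 than in Abl.4 (-0.47), and both HIF-1 genes were lower in Abl.3 than in Abl.4 (-0.84 and -0.78). Myc was not called in any comparison.

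Hypoxia-induced genes outside glycolysis are listed with the shares of all genes lower in the first line, 14.0%, 18.4% and 26.8%. Of 9 tested, 4 were lower and 2 higher in Abl.2 than in Abl.3 (median -0.14), 8 were lower in Abl.2 than in Abl.4 (median -0.80), and 6 were lower and 2 higher in Abl.3 than in Abl.4 (median -0.47). The 8 became 5 to 8 when a single library was left out, and the lowest count was without Abl.2 replicate 2. Egln3, a prolyl hydroxylase that marks HIF for destruction, was listed at 0 TPM in every library of Abl.2 and Abl.3 and was at 5.77 and 6.39 TPM in Abl.4. It passed the filter on low values only through Abl.4 and is among both the 8 and the 6. Oxygen levels were not given in the sources used here.

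The genes whose abundance over the 6 libraries was most like that of Hk2 or Eno1 were found by the Euclidean distance of log2(TPM + 1), centred per gene, among 2351 genes. For Hk2 they were Psph, an enzyme of serine synthesis (distance 0.345), Bnip3, a mitochondrial protein of the hypoxia response (0.367), and Tpi1 (0.386). Psph was at 26.1 ± 0.0283, 59.4 ± 2.35 and 70.0 ± 1.11 TPM, and Bnip3 at 139 ± 5.01, 345 ± 10.5 and 478 ± 39.3 TPM, in Abl.2, Abl.3 and Abl.4. For Eno1 they were Mis18a, a centromere protein (0.392), Btd, which recycles biotin (0.393), and Stx2, a syntaxin of membrane fusion (0.397). Candidates had to differ between lines by at least 0.5 on the log2 scale, more than Eno1 itself did, so these distances to Eno1 carry little weight. The points share the same 6 libraries, and a small distance is a description only.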

How the data were processed

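Whole-number allele counts, maternal and paternal per gene, and TPM were used as the authors deposited them; per the file headers, allele counts were taken at SNPs within genes and TPM obtained with DESeq2. The fraction of maternal counts per line is the authors' own deposited value. The submitters' processing notes name STAR 2.5.4a, SAMtools, GATK and DESeq2 and the builds GRCm38, mm10 and GRCh37, without roles. Of 35412 genes, 98.2% had the start and end of GENCODE M21 (GRCm38).

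Abundance was tested with limma 3.58.1 (R 4.3.3; trended eBayes) on log2(TPM + 1) for the 11003 genes averaging 1 TPM or more; the pseudocount understates changes of low genes. Allele counts were tested with edgeR 4.0.16 (quasi-likelihood; library intercepts and a separate allele effect for each line) for 8702 autosomal and X genes with at least 20 counts in each library. P-values are two-sided and were adjusted by Benjamini-Hochberg over all tested genes, with a threshold of 0.05. The tests were checked on simulated data. Reads carry no molecular identifiers, so 95% Wilson intervals cover counting error only, and TPM keep no depth. Whether a read over several SNPs was counted once was not given in the sources used here.

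Members and lists were chosen with earlier results of these data known. Named were all members, Hk1, Gpi1 and Tpi1, the 3 listed pathway genes with the largest called difference per pair of lines, and the 3 genes nearest Hk2 and Eno1 (mean of at least 20 TPM, range of at least 0.5). Alternatives were another pseudocount, filters, quantile normalisation, summed allelic counts (edgeR), DESeq2 1.42.0 on allele counts, other coverage minimums, an allele-total null, a replicate block and leaving out each library. A sum of Eno1 with its copies was added after seeing the data.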

Additional observations from a re-analysis of the deposited data

Results flagged for a closer look

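By the edgeR test of the difference itself, the allelic effects of 5 members were called as different between lines. That test called 28.4% (Abl.2 against Abl.3), 22.3% (Abl.2 against Abl.4) and 16.5% (Abl.3 against Abl.4) of all genes. Allelic shares were among the values that chose the members, so these calls are a description that supports nothing. The log2 ratio of maternal to paternal counts of Pfkl was -0.97 for Abl.2 minus Abl.3 and -1.02 for Abl.2 minus Abl.4. The other differences were -0.27 for Pfkp between Abl.2 and Abl.3, -0.15 for Aldoa between Abl.2 and Abl.3, -0.23 and -0.24 for Pkm in Abl.2 and Abl.3 against Abl.4, and -0.10 for Ldha between Abl.2 and Abl.4. The Ldha call was lost without any one of the 6 libraries and with the replicate block, and the Aldoa call without Abl.2 replicate 2 or either Abl.3 library.

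A second row named Aldoa in the allele table (ENSMUSG00000114515, chromosome 7, 126800790 to 126809108, not in the abundance table) gave opposite alleles in different lines. Its maternal share was 0 in Abl.3, with 0 maternal and 10 paternal counts in one library and 0 and 25 in the other; counts of 0 allow shares of up to 0.300 and 0.120 (3 counts of the total), and the first library is under the minimum of 20 counts. It was maternal in all 28 and 31 counts of Abl.2 and all 38 and 24 counts of Abl.4, where paternal shares of up to 0.0789 to 0.125 are allowed over the 4 libraries. This difference was not tested, some libraries have few counts, and the row overlaps Fam57b and Gm44856 on the other strand.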

How the results depend on the processing

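Without a single library, called genes numbered 2529 to 4565 (Abl.2 against Abl.3; 4382 with all), 2040 to 3269 (Abl.2 against Abl.4; 3682) and 2336 to 3659 (Abl.3 against Abl.4; 4194) for abundance. For imbalance they numbered 3209 to 4454 in Abl.2, 2739 to 4116 in Abl.3 and 2761 to 3418 in Abl.4. For allelic differences they numbered 2063 to 2612, 1646 to 1920 and 1039 to 1326 in the same order of pairs; a lone library was taken to vary like the others. No other setting moved a total of calls over all genes by over 1.5 times. By direction, genes lower in Abl.3 than in Abl.4 went from 2946 to 1757 and those higher from 1248 to 1906 under quantile normalisation; with summed allelic counts 1727 were lower. With the allele totals as the null, more paternal differences were called in Abl.2, 1853 in place of 1132 against Abl.3 and 1325 in place of 836 against Abl.4. Counts within the small lists moved more: transporters lower in Abl.3 than in Abl.4 went from 5 to 3 with a pseudocount of 0.1, flux regulators higher in Abl.2 than in Abl.3 from 4 to 2 with every gene above 0 TPM, and members lower in Abl.3 than in Abl.4 from 2 to 1 in both settings. Without single libraries, the 5 transporters went to as few as 2 and the 4 flux regulators to 2 (without any Abl.2 or Abl.3 library).

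With summed allelic counts (edgeR, TMM), the Gapdh difference reversed to 0.30 against Abl.3 (edgeR adjusted p = 0.708) and 1.83 against Abl.4 (0.0390), and only the latter passed. These Gapdh counts are not read as abundance. With the allele totals as the null, the Pkm imbalance of Abl.2 became -0.0031 and its difference between Abl.2 and Abl.3 -0.18, Tkt imbalance in Abl.2 -0.11 and its difference between Abl.2 and Abl.3 -0.17, and Pck2 imbalance in Abl.2 -0.14. The allelic differences called among the 7 members went from 3, 3 and 1 to 5, 5 and 2: Ldha (edgeR adjusted p = 0.000126) and Pkm (0.00105) were gained between Abl.2 and Abl.3, Pfkp (0.00483) and Aldoa (0.00595) between Abl.2 and Abl.4, and Pfkp (0.0387) between Abl.3 and Abl.4. Aldoa imbalance in Abl.2 was gained too (-0.17, edgeR adjusted p = 0.00179). That null counts the biased chromosomes 4 and 10 of Abl.2 into the expected ratio, while X is left out of it. It also moved the share of imbalance calls toward the maternal allele in Abl.2 from 50.3% to 34.1%, and summed counts moved the share of abundance calls higher in the first line to 52.4%, 49.3% and 46.7%. Counting every gene above 0 TPM lost the calls of Gapdh for Abl.2 against Abl.3 (limma adjusted p = 0.0509), Pfkl for Abl.2 against Abl.4 (0.0814) and Abl.3 against Abl.4 (0.0989), and Gpi1 for Abl.3 against Abl.4 (0.0882). For Abl.3 against Abl.4, a pseudocount of 0.1 lost Pfkl (0.0506) and Slc16a3 (0.164), and summed counts lost Pfkl (edgeR adjusted p = 0.221) and Pfkp (0.0687).

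The replicate numbers mark library preparations. Same-numbered libraries deviated together weakly in abundance (r of 0.104 to 0.187 over genes) and not in share (-0.056 to 0.015), and no label ties a number to a shared day or culture; with 2 numbers per line, the libraries were not treated as paired. With the replicate number as a block, 5213, 4608 and 5184 genes were called for abundance; Pkm between Abl.3 and Abl.4 was then called (limma adjusted p = 0.0110), as were Tpi1 between Abl.3 and Abl.4 (0.0260) and Pdk2 between Abl.2 and Abl.4 (0.0171), and Ldha lost its imbalance in Abl.4 (edgeR adjusted p = 0.0845) and its difference between Abl.2 and Abl.4 (0.0545). Depth limits Hk2 in Abl.2, where 5 maternal counts were seen, and Gapdh, with as few as 141 allelic counts.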
